A study of Angelica pubescens with 12 samples.

Results

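The enzymes that build the coumarin ring and the furanocoumarins were followed in roots of Angelica pubescens, the umbellifer whose dried root is the drug Angelicae Pubescentis Radix. They are 6 of the 67432 unigenes (assembled transcript sequences) of the series, picked by their identifiers for their protein matches: a pair of feruloyl CoA ortho-hydroxylases, an umbelliferone 6-dimethylallyl transferase, a psoralen synthase, an angelicin synthase and a bergaptol O-methyltransferase. The roots were 2 years old and came from 4 producing areas, Chongqing, Gansu, Hubei and Shanxi, set side by side for their ecological environments, with 3 RNA sequencing libraries from each. The labels name neither plants nor pools, so the p-values below rest on the scatter among these libraries, which may be technical, and a difference in area cannot be told apart from any difference in the plants grown there. The libraries held 19920182 to 23319714 estimated counts. All 6 passed the filter on low counts and were tested, the angelicin synthase unigene only through its counts in Gansu.

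Coumarins are made in plants from CoA-activated cinnamic acids. An ortho-hydroxylase places a hydroxyl group beside the side chain, the ring then closes, and p-coumaroyl CoA gives umbelliferone while feruloyl CoA gives scopoletin. A membrane-bound prenyltransferase adds a dimethylallyl group to umbelliferone, and the position of that group decides between linear furanocoumarins, reached through marmesin, and angular ones, reached through columbianetin. Psoralen synthase and angelicin synthase are cytochrome P450 enzymes of the CYP71AJ family, known from Ammi majus and parsnip, which make the parent compounds of the linear and the angular series. Bergaptol O-methyltransferase turns bergaptol into bergapten late in the linear series. Coumarins of both kinds are the characteristic compounds of this root, and umbellifers are known to use furanocoumarins in defence against insects and microbes.

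The names rest on best protein matches, and the databases did not give every unigene 1 name. Both ortho-hydroxylase unigenes, TRINITY_DN22251_c0_g1_i3_3 and TRINITY_DN19624_c0_g1_i3_1, matched feruloyl CoA ortho-hydroxylase F6H1-2 of sweet potato in Swiss-Prot and p-coumaroyl CoA 2'-hydroxylase of Angelica decursiva in NR, the protein collection of NCBI. The databases thus name different substrates, and the unigenes are called the first and the second ortho-hydroxylase here. The prenyltransferase (TRINITY_DN22720_c1_g1_i16_4), psoralen synthase (TRINITY_DN21601_c0_g3_i1_1) and bergaptol O-methyltransferase (TRINITY_DN22889_c3_g1_i9_1) had the same enzyme name in both, with the NR match in Glehnia littoralis. The unigene called angelicin synthase (TRINITY_DN2443_c0_g2_i1_1) matched angelicin synthase CYP71AJ4 of parsnip in Swiss-Prot but a psoralen synthase-like protein of carrot in NR. The length implied by its ratio of counts to FPKM was 676 bases against 1685 for psoralen synthase. The ortho-hydroxylases were the 2 unigenes of their NR entry, the prenyltransferase and the angelicin synthase each had 2 companions in theirs, psoralen synthase had 1, and bergaptol O-methyltransferase stood alone.

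The summed level of these 6 unigenes of the route was lowest in the roots from Chongqing and highest in those from Gansu. Other unigenes with coumarin names, given further below, did not all follow this order. The 6 unigenes summed to 3122 ± 270.4 CPM in Gansu, 1397 ± 103 in Hubei, 1531 ± 112 in Shanxi and 366 ± 18.7 in Chongqing (n = 3 libraries per area, CPM being counts relative to TMM-scaled library size), which was 0.0357% to 0.336% of the counts of a library. Each of the 6 differed between areas in the quasi-likelihood test of edgeR at an adjusted p under 0.05, as did 70.4% of all tested unigenes. Of the 6, 4 (both ortho-hydroxylases, psoralen synthase and bergaptol O-methyltransferase) were lower in Chongqing than in each other area, against 7.78% of all tested unigenes. Gansu exceeded each other area for 4, the first ortho-hydroxylase, the prenyltransferase, psoralen synthase and bergaptol O-methyltransferase, against a background of 5.97%. Because the 6 were chosen with earlier results of these data known, these shares are descriptions and not a test of enrichment. The second ortho-hydroxylase was lower in Gansu than in Hubei and Shanxi. The angelicin synthase unigene had its highest mean in Gansu, without a call against Hubei, and its lowest in Shanxi. For the prenyltransferase, Chongqing and Hubei were not called different. The plot of levels by library shows all 6.

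**Figure D1:**
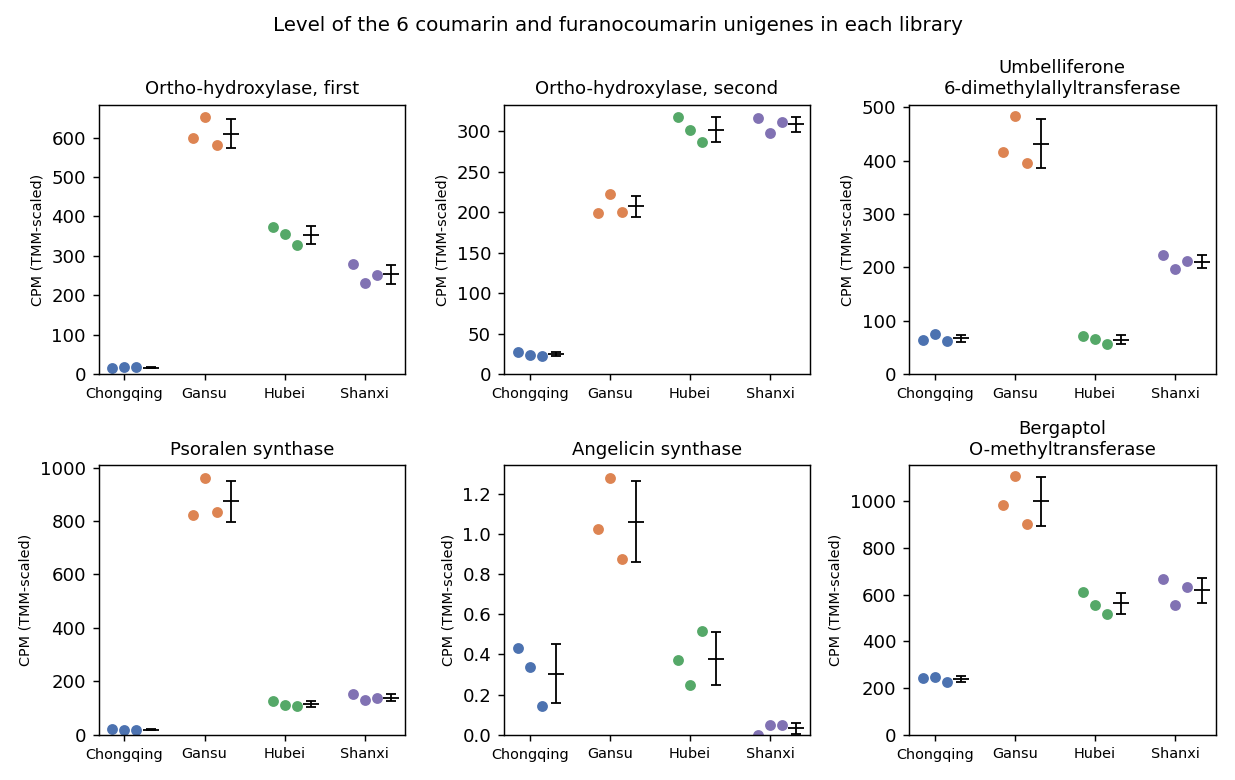
Level of each of the 6 unigenes in each library, in CPM (TMM-scaled, linear axes that start at 0), with 3 points per area and the mean and SD beside them. The Gansu points stand highest in every panel but that of the second ortho-hydroxylase, where Hubei and Shanxi lie together between 287 and 318 CPM.

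The 2 ortho-hydroxylases, which open the route, were both scarce in Chongqing but ordered the other areas differently. In replicates 1, 2 and 3, the first stood at 599, 652 and 580.1 CPM in Gansu, at 373, 355 and 329 in Hubei, at 279, 231 and 251 in Shanxi and at 14.8, 17.9 and 16.99 in Chongqing. No areas overlapped, and the order ran Gansu, Hubei, Shanxi, Chongqing. It was 36.8-fold higher in Gansu than in Chongqing (log2 fold change -5.20 ± 0.10, SE; edgeR adjusted p = 1.6e-12), 21.3-fold higher in Hubei and 15.3-fold higher in Shanxi. Signs of log2 fold changes here and after are of the area first in alphabetical order minus the other, so a negative value is a lower level in the first. Hubei and Shanxi were the closest neighbours, with Hubei 1.39-fold higher (edgeR adjusted p = 0.00046).

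The second ortho-hydroxylase stood at 199.6, 223 and 199.8 CPM in Gansu, at 318, 302 and 287 in Hubei, at 317, 298 and 311 in Shanxi and at 27.5, 24.1 and 22.6 in Chongqing. Its Hubei and Shanxi libraries overlapped at the top, Gansu lay below both, and Chongqing was far below all. Gansu exceeded Chongqing 8.39-fold, but was lower than Hubei (log2 fold change -0.54 ± 0.07; edgeR adjusted p = 3.9e-05) and lower than Shanxi (-0.57 ± 0.07; edgeR adjusted p = 2.9e-05). Hubei and Shanxi did not pass the test against each other (log2 fold change -0.03 ± 0.07, adjusted p = 0.78 with edgeR). On the FPKM scale, which allows levels of different unigenes to be compared, the first ortho-hydroxylase was at 487 ± 13.95 FPKM in Gansu, 269.7 ± 9.23 in Hubei, 196 ± 12.04 in Shanxi and 13.1 ± 1.16 in Chongqing. The second was at 192 ± 6.17 FPKM in Gansu, 268 ± 5.596 in Hubei, 277 ± 1.42 in Shanxi and 22.7 ± 2.26 in Chongqing on that scale. The 2 unigenes thus stood level in Hubei, with the first ahead in Gansu and the second ahead in Chongqing and Shanxi.

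The first ortho-hydroxylase held 74.6% ± 0.333 in Gansu, 53.8% ± 0.356 in Hubei, 45.03% ± 1.63 in Shanxi and 40.2% ± 4.44 in Chongqing of the counts of the NR entry that the pair shares. These shares differed between areas in an exact permutation test over the 15400 partitions of the libraries into 4 groups of 3 (p = 6.5e-05, the smallest it can give; adjusted p = 9.7e-05 over 3 shares tested). The summed pair stood at 818 ± 49.9 CPM in Gansu, 654 ± 38.00 in Hubei, 562 ± 33.1 in Shanxi and 41.3 ± 1.502 in Chongqing. Summed, Gansu was above Hubei by 0.30 ± 0.06 on the log2 scale (edgeR adjusted p = 0.0014) and above Shanxi by 0.53 ± 0.07 (edgeR adjusted p = 1.5e-05), the opposite direction to the second ortho-hydroxylase alone. Summed over their Trinity genes, which also hold transcripts matching other proteins, the Gansu to Chongqing ratio was 8.99-fold for the first and 4.35-fold for the second. The pair summed over NR had 19.6-fold more in Gansu than in Chongqing, between the values of the single unigenes. How reads of similar sequences were divided is not given in the sources used here, so the split of counts between the 2 unigenes is less certain than their sum.

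Prenylation of umbelliferone followed another order. The prenyltransferase stood at 417, 483 and 395 CPM in Gansu, at 71.9, 65.9 and 56.4 in Hubei, at 223, 197 and 212 in Shanxi and at 63.6, 74.9 and 62.5 in Chongqing. Gansu was highest and Shanxi next, both clear of the rest, while the Chongqing and Hubei libraries overlapped. It was 6.44-fold higher in Gansu than in Chongqing (log2 fold change -2.69 ± 0.11; edgeR adjusted p = 6.3e-10) and 6.67-fold higher in Gansu than in Hubei. Chongqing and Hubei were not called different for this unigene (log2 fold change 0.05 ± 0.11, adjusted p = 0.74 with edgeR). Shanxi exceeded Chongqing 3.15-fold and Hubei 3.26-fold. Over its Trinity gene, which holds a ribosomal protein match as well, Gansu exceeded Chongqing 3.16-fold and Hubei 3.06-fold.

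The other unigenes of the same NR entry were distributed otherwise. TRINITY_DN22242_c2_g1_i9_2 stood at 149.99 CPM in Gansu, 95.1 in Hubei, 59.6 in Shanxi and 41.8 in Chongqing, and was higher in Hubei than in Shanxi (log2 fold change 0.67 ± 0.11; edgeR adjusted p = 0.00016). TRINITY_DN24348_c0_g1_i13_3 stood at 70.7 CPM in Gansu, 1.01 in Hubei, 76.7 in Shanxi and 7.74 in Chongqing, with Gansu and Shanxi not called different (-0.12 ± 0.26, adjusted p = 0.77 with edgeR) and Hubei lowest. The prenyltransferase held 66.1% ± 2.401 in Gansu, 40.2% ± 2.87 in Hubei, 60.7% ± 2.07 in Shanxi and 57.4% ± 2.68 in Chongqing of the counts of its NR entry, which differed between areas (exact permutation test, p = 0.00013, adjusted p = 0.00013 over 3 shares). With the 3 unigenes summed, Hubei was above Chongqing (log2 fold change -0.47 ± 0.07; edgeR adjusted p = 4e-05), and Gansu exceeded Hubei 4.01-fold. Over all 10 unigenes of the parsley prenyltransferase entry in Swiss-Prot, 5 of which matched homogentisate phytyltransferases in NR, Hubei exceeded Chongqing 2.11-fold.

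Psoralen synthase showed the widest range of the 6 between Chongqing and Gansu. It stood at 824, 961 and 835 CPM in Gansu, at 128, 110.3 and 107 in Hubei, at 153, 129 and 137 in Shanxi and at 20.5, 17.9 and 19.5 in Chongqing. The Gansu libraries were far above all others, Shanxi and Hubei lay close together without overlap, and Chongqing was lowest. The ratio of Gansu to Chongqing was 45.2-fold (log2 fold change -5.50 ± 0.11; edgeR adjusted p = 1.6e-12), that of Gansu to Hubei 7.58-fold and that of Gansu to Shanxi 6.25-fold. Shanxi exceeded Hubei by 1.21-fold (edgeR adjusted p = 0.023), a call lost without Hubei replicate 2 (0.082), Hubei replicate 3 (0.084) or Shanxi replicate 1 (0.092).

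A companion unigene of psoralen synthase, TRINITY_DN24122_c0_g8_i1_3, shared its NR entry and stood at 254 CPM in Gansu, 29.2 in Hubei, 52.4 in Shanxi and 15.6 in Chongqing. It too was highest in Gansu and lowest in Chongqing. Psoralen synthase held 77.5% ± 0.687 in Gansu, 79.8% ± 0.483 in Hubei, 72.7% ± 1.56 in Shanxi and 55.3% ± 2.61 in Chongqing of the summed counts, a difference between areas in the exact permutation test (p = 6.5e-05, adjusted p = 9.7e-05 over 3 shares). Summed, Gansu exceeded Chongqing 31.99-fold. TRINITY_DN21646_c2_g2_i6_2, whose NR match is another psoralen synthase of Glehnia littoralis, went the other way, with 11.8 CPM in Gansu, 7.87 in Hubei, 6.12 in Shanxi and 18.2 in Chongqing, and was higher in Chongqing than in each other area (edgeR adjusted p = 0.00084 against Gansu, 2e-06 against Hubei and 2e-07 against Shanxi). It was singled out after its values were seen.

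The angelicin synthase unigene was at the edge of detection. Its estimated counts stood at 21.04, 25.2 and 21.3 counts in Gansu, at 8.05, 5.56 and 12.1 in Hubei, at 0, 1.14 and 1.15 in Shanxi and at 10.1, 7.75 and 3.36 in Chongqing. A single library at 0 allows up to 0.134 CPM (3 counts, counting error only), and the mean of the Gansu libraries was 1.06 CPM. Gansu held the most and Shanxi the least, with no overlap of either with another area, while Chongqing and Hubei overlapped. Pooled over 3 libraries, 67 counts in Gansu against 2 in Shanxi gave a ratio of 35.6 (95% exact binomial counting interval 9.48 to 299.98). Hubei over Shanxi gave 13.3 (3.32 to 115) and Chongqing over Shanxi 10.3 (2.52 to 90.7), and all 3 contrasts with Shanxi were called (edgeR adjusted p = 0.00028, 0.0037 and 0.007). Only its Gansu libraries brought this unigene past the count filter, so its ratio and call of Gansu against Shanxi are not independent of that filter.

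Between Gansu and Chongqing the call for this unigene was marginal, with a log2 fold change of -1.78 ± 0.64 (edgeR adjusted p = 0.044). It was lost in 11 of the 12 removals of 1 library, all but that of Shanxi replicate 1, with adjusted p up to 0.15 without Chongqing replicate 3. Gansu against Hubei was not called (1.44 ± 0.63, adjusted p = 0.078 with edgeR), nor was Chongqing against Hubei (-0.35 ± 0.65, adjusted p = 0.7 with edgeR). Its companions, TRINITY_DN2443_c0_g1_i1_1 and TRINITY_DN26143_c0_g1_i1_3, were shorter still, at 400 and 362 bases, and the sum of the 3 was called for Gansu against Chongqing (log2 fold change -2.29 ± 0.52; edgeR adjusted p = 0.0026) and against Hubei (1.87 ± 0.50; edgeR adjusted p = 0.0067). A longer unigene, TRINITY_DN22496_c0_g4_i1_2, matched an angelicin synthase of Peucedanum praeruptorum in NR and psoralen synthase in Swiss-Prot. Chosen after its values were seen, it stood at 19.01, 23.1 and 27.3 CPM in Gansu, at 101, 103 and 91.5 in Hubei, at 42.5, 46.5 and 49.2 in Shanxi and at 5.63, 4.22 and 4.81 in Chongqing. It was higher in Hubei than in Gansu (log2 fold change of Gansu against Hubei -2.09 ± 0.12; edgeR adjusted p = 1.3e-08), than in Shanxi and than in Chongqing, so the 2 unigenes named for this enzyme peaked in different areas.

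Bergaptol O-methyltransferase had the highest FPKM of the 6 in all 4 areas, at 804 ± 57.9 FPKM in Gansu, 434 ± 22.8 in Hubei, 482 ± 26.6 in Shanxi and 190.5 ± 6.72 in Chongqing. Its ratio of Gansu to Chongqing was the smallest among the 5 unigenes other than the angelicin synthase one. Library by library it stood at 983, 1108 and 903 CPM in Gansu, at 611, 557 and 518 in Hubei, at 665, 557 and 631 in Shanxi and at 243, 248 and 224 in Chongqing. Gansu was highest, Chongqing lowest, and the Hubei and Shanxi libraries overlapped. It was 4.19-fold higher in Gansu than in Chongqing (log2 fold change -2.07 ± 0.09; edgeR adjusted p = 1.7e-09), 2.36-fold higher in Hubei and 2.59-fold higher in Shanxi. Hubei and Shanxi were not called different (-0.14 ± 0.09, adjusted p = 0.25 with edgeR).

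Another 3 unigenes matched the same methyltransferase in Swiss-Prot, and a bergaptol O-methyltransferase of Peucedanum praeruptorum in NR. They were named after their values were seen. TRINITY_DN20534_c0_g1_i1_2 stood at 181 CPM in Gansu, 953 in Hubei, 8.42 in Shanxi and 76.04 in Chongqing, and was higher in Hubei than in Shanxi by 6.82 ± 0.17 on the log2 scale (edgeR adjusted p = 1.1e-11). TRINITY_DN22691_c1_g1_i14_3 was instead highest in Shanxi and lowest in Hubei, at 384 CPM in Gansu, 57.2 in Hubei, 1254 in Shanxi and 198 in Chongqing (Hubei against Shanxi -4.45 ± 0.14, adjusted p = 4.6e-11 with edgeR). TRINITY_DN22853_c0_g2_i4_4, at 53.7 CPM in Gansu, 2.95 in Hubei, 209 in Shanxi and 11.2 in Chongqing, had its highest and lowest means in the same areas as the latter. Summed over the 4 unigenes of the Swiss-Prot entry, Gansu was not called different from Hubei (log2 fold change 0.02 ± 0.10, adjusted p = 0.89 with edgeR) and was lower than Shanxi (-0.35 ± 0.10; edgeR adjusted p = 0.01). Gansu led for the single unigene and not for the sum of the sequences that matched the enzyme.

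**Figure D2:**
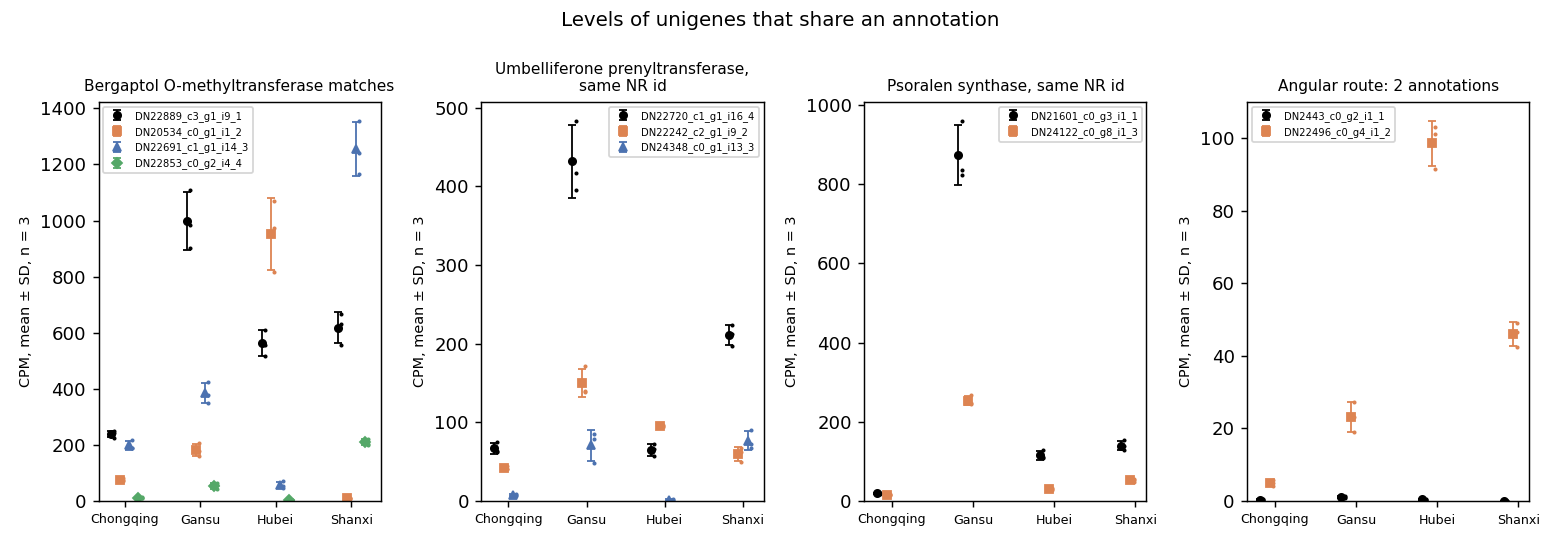
Mean CPM with SD per area (n = 3 libraries, small points; linear axes from 0) of unigenes that share an annotation with bergaptol O-methyltransferase, the prenyltransferase and psoralen synthase, and of the 2 unigenes with an angelicin synthase match. Among the 4 methyltransferase matches the highest area is Gansu for DN22889_c3_g1_i9_1, Hubei for DN20534_c0_g1_i1_2 and Shanxi for the other 2.

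Taking the areas in pairs, the largest median changes of the 6 unigenes were in the pairs with Chongqing. Against Gansu, 6 of 6 were called and lower in Chongqing, where 38.5% of all tested unigenes were called, 19.1% lower and 19.4% higher. The angelicin synthase unigene passed the count filter only through its Gansu libraries, so the filter favoured its calls in pairs with Gansu. Its call between Chongqing and Gansu was lost in 11 of the 12 removals of 1 library. Against Hubei, 4 were called, all lower in Chongqing (49.6% called in all, 25.9% lower and 23.6% higher), and against Shanxi 6, of which 5 were lower and the angelicin synthase unigene higher (47.8% called, 24.8% lower and 23% higher). The median log2 fold changes of the 6 were -2.88, -1.91 and -2.25, beside 0 for all tested unigenes in each of these pairs. Gansu against Hubei called 5, with 4 higher and the second ortho-hydroxylase lower (50.5% of all tested called, 24% higher and 26.5% lower), and Gansu against Shanxi called 6, with 5 higher (44.1% called, 21.2% higher and 22.9% lower). Hubei against Shanxi called 4, with 2 higher and 2 lower in Hubei (44.6% called, 23.5% higher and 21% lower), with a median size of change of 0.38 against 0.79 for all tested unigenes. The first ortho-hydroxylase and psoralen synthase were called in all 6 pairs, as were 5.92% of tested unigenes. At a change of at least 2-fold, 2 of 6 were left between Gansu and Hubei (35.8% of all tested unigenes) and 2 between Hubei and Shanxi (30.8%). Summed over their 5 NR entries, 5 were called between Chongqing and Gansu (38.8% of all NR sums tested), 4 between Chongqing and Hubei (49.8%), 5 between Chongqing and Shanxi (47.8%), 5 between Gansu and Hubei (50.7%), 5 between Gansu and Shanxi (44.6%) and 4 between Hubei and Shanxi (44.7%). The pairs share libraries, so these counts are not independent of each other.

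**Figure D3:**
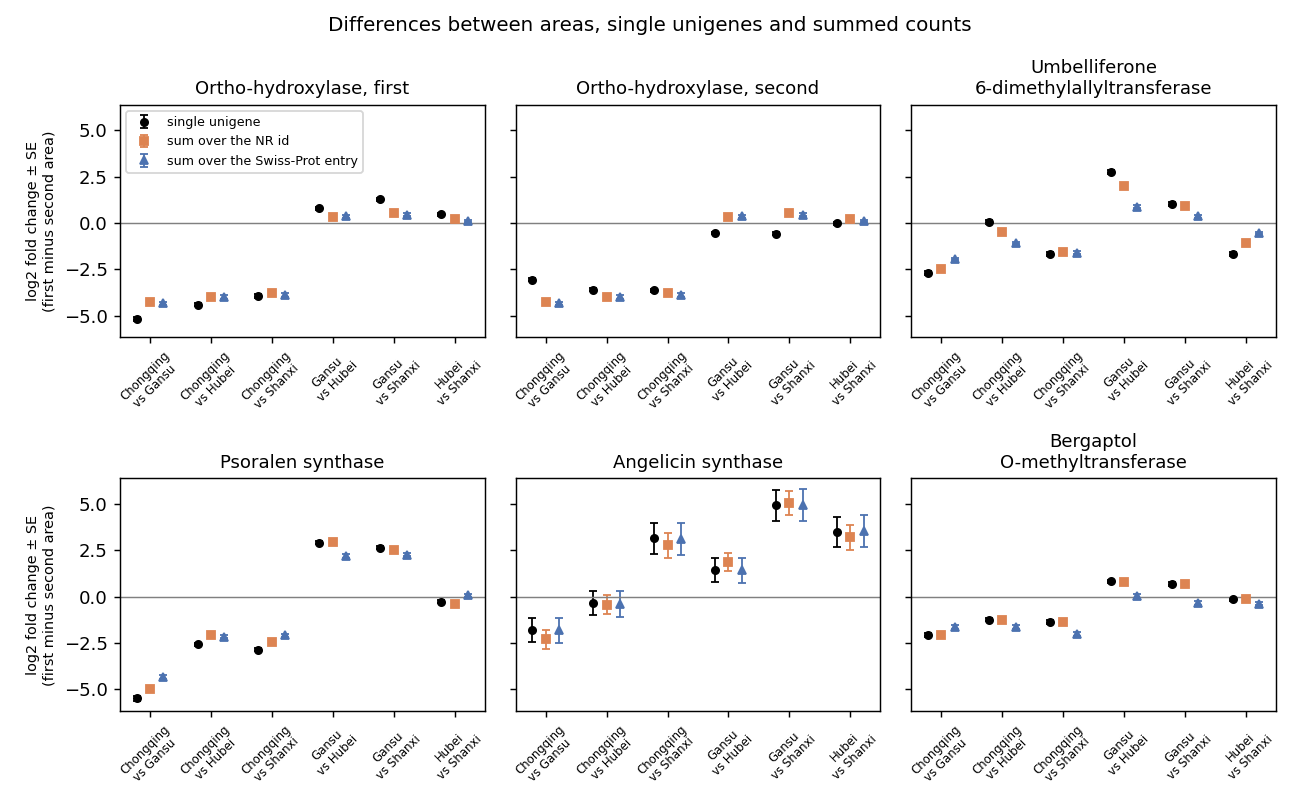
Log2 fold changes with SE (first named area minus second) for each pair of areas, from edgeR, for the single unigene, for counts summed over its NR entry and for counts summed over its Swiss-Prot entry. The 3 values have the same sign in the Chongqing pairs of the ortho-hydroxylases and psoralen synthase and differ in sign for the second ortho-hydroxylase between Gansu and Hubei (-0.54 alone, 0.30 summed over NR).

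Levels of the enzymes relative to each other, as log2 ratios of FPKM, also differed between areas. The prenyltransferase relative to the first ortho-hydroxylase stood at -1.05 ± 0.06 in Gansu, -2.99 ± 0.08 in Hubei, -0.81 ± 0.05 in Shanxi and 1.47 ± 0.12 in Chongqing, so that the prenyltransferase was the more abundant of the 2 in Chongqing and the less abundant elsewhere. Psoralen synthase relative to the prenyltransferase stood at 1.16 ± 0.05 in Gansu, 0.98 ± 0.09 in Hubei, -0.45 ± 0.04 in Shanxi and -1.65 ± 0.24 in Chongqing, above 0 in Gansu and Hubei and below 0 in Chongqing and Shanxi. The ratio of bergaptol O-methyltransferase to psoralen synthase was 0.61 ± 0.07 in Gansu, 2.70 ± 0.04 in Hubei, 2.56 ± 0.05 in Shanxi and 4.04 ± 0.14 in Chongqing. The ratio of the second to the first ortho-hydroxylase was -1.34 ± 0.03 in Gansu, -0.01 ± 0.02 in Hubei, 0.50 ± 0.10 in Shanxi and 0.79 ± 0.27 in Chongqing. Each of the 4 ratios differed between areas in the exact permutation test (p = 6.5e-05, the smallest it can give; adjusted p = 6.5e-05 over 4 ratios; a test of any difference, on the upper tail of F). With FPKM summed over NR entries the first 3 ratios kept the sign of each area's mean, at 0.14 ± 0.08 for psoralen synthase over the prenyltransferase in Hubei. Bergaptol O-methyltransferase is alone in its NR entry, so this sum left out the other methyltransferase matches and changed only the psoralen synthase side of that ratio.

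**Figure D4:**
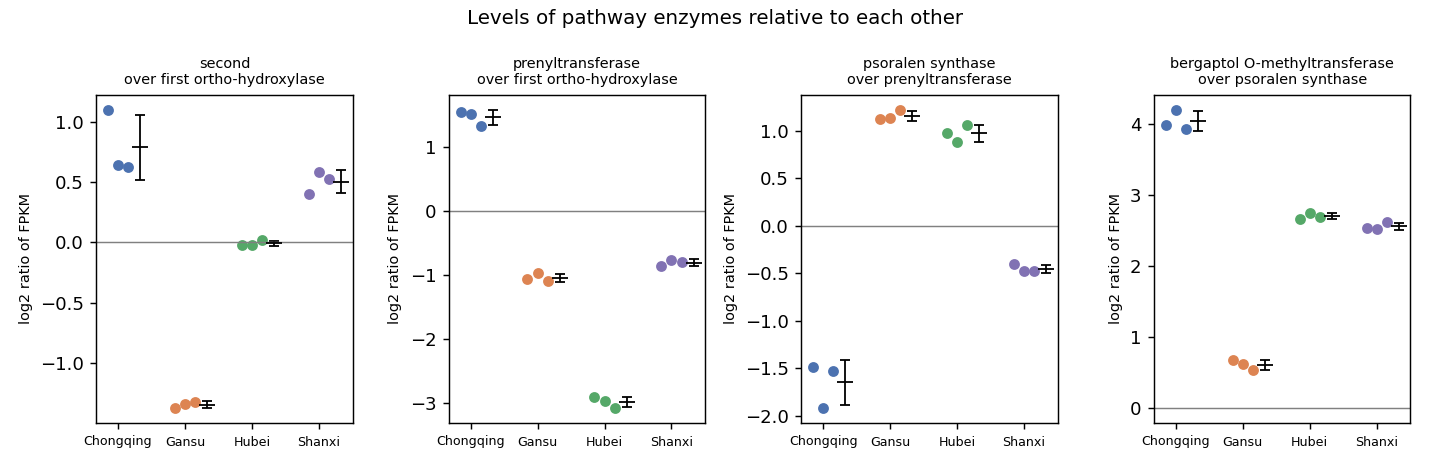
Log2 ratio of FPKM between pairs of the enzymes in each library, 3 points per area with mean and SD beside them, and a line at 0 where both unigenes are level. Psoralen synthase lies above the prenyltransferase in all Gansu and Hubei libraries and below it in all Chongqing and Shanxi libraries.

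Across the 12 libraries, whose points fall into 4 areas and share library and scaling, psoralen synthase and bergaptol O-methyltransferase ran most closely together among the 6 (Pearson's r of log2(CPM + 0.5) 0.98, Spearman's rho 0.97). The 2 ortho-hydroxylases had an r of 0.93 but a rho of 0.33. These correlations are descriptions, since libraries of the same area lie close together. By the same measure, over 14802 annotated unigenes, the one most like the first ortho-hydroxylase was a 1-aminocyclopropane-1-carboxylate oxidase of ethylene synthesis (r = 0.998), followed by a pair of delta(12)-fatty-acid desaturase FAD2 matches (r = 0.997 and 0.996). The second ortho-hydroxylase was closest to a proline-tRNA ligase (r = 0.995), a non-specific phospholipase C6 and a cytochrome b5 (both r = 0.994). The prenyltransferase was closest to a match of the transcription factor WRKY70 (r = 0.992), a class V chitinase (r = 0.991) and a methylenetetrahydrofolate reductase (r = 0.989). Psoralen synthase was closest to a peroxisomal acyl-coenzyme A thioester hydrolase (r = 0.997), a norbelladine synthase match (r = 0.995) and a TauE/SafE family protein (r = 0.994). Bergaptol O-methyltransferase was closest to an allene oxide cyclase of jasmonate synthesis (r = 0.996), arogenate dehydratase 3 of phenylalanine synthesis (r = 0.996) and NADPH-cytochrome P450 reductase 2, which passes electrons to P450 enzymes (r = 0.994).

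Beyond the 6, another 39 unigenes carried a coumarin name, of which 35 passed the filter on low counts. Among these 35, 33 differed between areas (70.4% of all tested unigenes did), 12 of them in all 6 pairs (5.92% of all tested). Against Gansu, 17 of the 35 were lower in Chongqing (19.1% of all tested unigenes were) and 9 higher (19.4%). Against Hubei 18 were lower (25.9%) and 8 higher (23.6%), and against Shanxi 19 were lower (24.8%) and 10 higher (23%). Their median log2 fold changes in these pairs were -1.18, -0.66 and -0.54, beside 0 for all tested unigenes. Between Gansu and Hubei, 14 were higher in Gansu (24% of all tested) and 14 lower (26.5%). Between Gansu and Shanxi 11 were higher (21.2%) and 13 lower (22.9%), and Hubei exceeded Shanxi for 16 (23.5%) and was lower for 11 (21%). By role, 10 of 10 tested ring unigenes, 8 of 8 of prenylation, 9 of 9 of the P450 step, 3 of 3 of O-methylation and 3 of 5 of glycosylation differed between areas. Several of the ring unigenes matched scopoletin 8-hydroxylase in Swiss-Prot and not an ortho-hydroxylase, so this role is wider than ring formation. Several of the prenylation unigenes matched homogentisate phytyltransferases in NR, so that role too may be wider than its name. Those of them that were tested had their highest means in Hubei or Shanxi. By highest mean, with near ties included, 13 of the 35 peaked in Hubei (27.2% of all tested unigenes did), 11 in Shanxi (24.1%), 7 in Gansu (23.7%) and 4 in Chongqing (25.0%). Among ring-forming matches, TRINITY_DN20507_c0_g1_i1_4, with the Swiss-Prot entry of the ortho-hydroxylases and a p-coumaroyl CoA 2'-hydroxylase of Peucedanum praeruptorum in NR, stood at 49.8 CPM in Gansu, 19.00 in Hubei, 79.7 in Shanxi and 2.29 in Chongqing. It was chosen after its values were seen. Of the glycosylation unigenes, the most abundant was a match of scopoletin glucosyltransferase (TRINITY_DN22166_c0_g1_i6_4), which attaches glucose to hydroxycoumarins, at 69.6 CPM in Gansu, 76.2 in Hubei, 80.1 in Shanxi and 55.1 in Chongqing. It was lower in Chongqing than in Gansu by a log2 difference of -0.34 ± 0.08 (edgeR adjusted p = 0.0039), with no call among the other 3 areas (adjusted p of 0.053, 0.19 and 0.51 with edgeR).

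**Figure D5:**
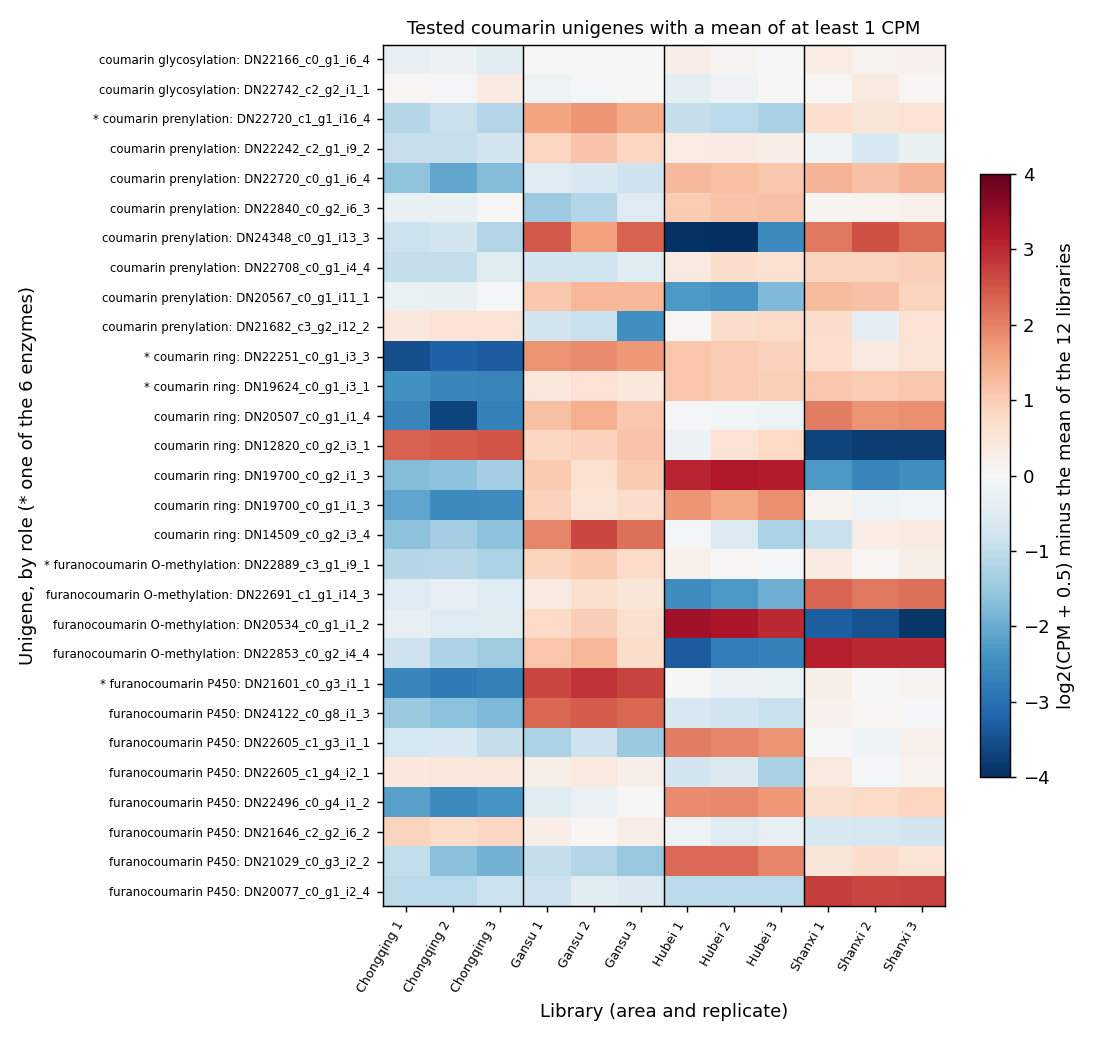
Level in each library of 29 tested coumarin unigenes with a mean of at least 1 CPM, as log2(CPM + 0.5) minus the mean of the 12 libraries (colour scale from -4 to 4), with areas divided by black lines. Those of the 6 enzymes that reach this mean are starred, which leaves out the angelicin synthase unigene. Starred rows are blue in Chongqing, as are some unstarred rows, such as TRINITY_DN24122_c0_g8_i1_3. Unstarred rows peak in various areas, such as TRINITY_DN20077_c0_g1_i2_4, a P450 match that is red in Shanxi alone.

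The most abundant unigene of each of 6 enzymes before the coumarin ring had its highest mean in another area, Hubei. The most abundant unigene of phenylalanine ammonia-lyase, which opens phenylpropanoid synthesis, stood at 256 CPM in Gansu, 455 in Hubei, 111 in Shanxi and 25.1 in Chongqing. Cinnamate 4-hydroxylase, the next step, stood at 223 CPM in Gansu, 592 in Hubei, 322 in Shanxi and 55.9 in Chongqing, and 4-coumarate-CoA ligase, which makes the CoA ester, at 159 CPM in Gansu, 356 in Hubei, 147 in Shanxi and 56.8 in Chongqing. Hubei had the highest mean for all 3, as for the leading unigenes of the hydroxycinnamoyltransferase, the cytochrome P450 98A2 match and the caffeoyl-CoA O-methyltransferase that lead to feruloyl CoA, and Chongqing the lowest. Over all 30 tested unigenes of these 6 enzymes, 21 had their highest mean in Hubei, 4 in Gansu, 4 in Chongqing and 1 in Shanxi. Of the 30, 19 were lower in Chongqing than in Hubei and 6 higher, and 15 were lower in Chongqing than in Gansu and 3 higher, with background shares as above. A chalcone synthase 2 match, of the flavonoid branch that draws on the same p-coumaroyl CoA, stood at 623 CPM in Gansu, 1.51 in Hubei, 0.988 in Shanxi and 7.53 in Chongqing, highest in Gansu. Each of the 7 differed between areas (edgeR adjusted p of 3.87e-14 to 6.4e-10).

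The RNA is that of ground roots, in which fewer cells of a type and less RNA per cell cannot be told apart. Markers of root tissues also moved with area. The 13 endodermis and suberin unigenes summed to 9.23 to 12.2 CPM in Gansu, 1.85 to 2.76 in Hubei, 2.898 to 3.58 in Shanxi and 3.81 to 4.43 in Chongqing. These sums were highest in Gansu, like the 4 enzymes called higher there than in each other area, but lowest in Hubei. The list was not uniform. Its 4 Casparian strip unigenes summed to a mean of 9.97 CPM in Gansu against 2.31 in Chongqing, 0.332 in Shanxi and 0.157 in Hubei. Of that Gansu sum, TRINITY_DN23421_c0_g4_i2_4 alone held 7.07 CPM. TRINITY_DN7455_c0_g1_i1_3 went the other way, at 2.31 CPM in Chongqing against 1.06 in Gansu. Both were named after their values were seen. In contrast, 8 of its 9 suberin unigenes had their lowest mean in Gansu, with sums of 0.384 CPM there, 1.78 in Chongqing, 2.04 in Hubei and 2.89 in Shanxi. The 26 phloem unigenes summed to 316 to 332 CPM in Gansu, 253 to 270.3 in Hubei, 415 to 444 in Shanxi and 125 to 134 in Chongqing, lowest in Chongqing and highest in Shanxi. The 22 secondary xylem unigenes summed to 14.7 to 16.1 CPM in Gansu, 17.01 to 19.7 in Hubei, 10.1 to 12.6 in Shanxi and 8.203 to 9.48 in Chongqing. Leaf photosynthesis unigenes (22) summed to 318 to 359.6 CPM in Gansu, 492 to 541 in Hubei, 499 to 531 in Shanxi and 469.5 to 492 in Chongqing, lowest in Gansu. That list was not uniform either, and some members had another name in NR. A Rubisco small chain match, TRINITY_DN20048_c0_g1_i1_4, stood at 93.8 CPM in Gansu, 1.45 in Hubei, 250 in Shanxi and 20.7 in Chongqing. Another, TRINITY_DN19621_c0_g1_i7_1, stood at 76.6 CPM in Gansu, 174 in Hubei, 6.19 in Shanxi and 170 in Chongqing. Both were named after their values were seen. The 64 unigenes of dividing cells summed to 778 to 842 CPM in Gansu, 1017 to 1178 in Hubei, 916 to 1059.9 in Shanxi and 767 to 818 in Chongqing. The 6 unigenes matching the root patterning genes SHORT-ROOT, SCARECROW and WOX5 summed to 4.59 to 5.86 CPM in Gansu, 7.61 to 9.36 in Hubei, 5.998 to 7.24 in Shanxi and 4.55 to 5.67 in Chongqing. The WOX5 match and 1 of 2 SCARECROW matches were at 0 in Chongqing. Elsewhere their means were only 0.0704 to 0.355 and 0.170 to 0.518 CPM. A Chongqing library at 0 allows up to 0.131 CPM, so these zeros say little. SHORT-ROOT matches were detected in every area. Among them TRINITY_DN31637_c0_g1_i1_1 peaked in Chongqing (3.71 CPM) and was lowest in Hubei (2.25). TRINITY_DN7853_c0_g1_i2_2 went the opposite way (1.04 and 4.98 CPM), and TRINITY_DN5917_c0_g1_i1_2 peaked in Hubei (0.271 CPM). These were named with their values known. None of the marker unigenes was at 0 in all libraries, and their part in the differences of the coumarin enzymes was not tested.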

How the data were processed

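RNA of roots was sequenced as messenger RNA-enriched libraries, 3 from each of 4 areas, and groups follow the sample titles. The authors deposited estimated counts per unigene, which need not be whole, and FPKM values of the same unigenes. Among tools, Bowtie2, RSEM, featureCounts, DESeq2, Trimmomatic and FastQC are listed, per the submitters' processing notes, without versions, roles or order, and the treatment of reads that fit several unigenes is not given in the sources used here. Protein matches (Swiss-Prot and NR) stood in the deposited tables for the unigenes, with 28596 of 67432 having a Swiss-Prot description.

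Estimated counts were rounded to whole numbers. Unigenes with low counts were removed with filterByExpr by area, which left 60756, and the quasi-likelihood test of edgeR 4.0.16 (R 4.3.3, TMM factors 0.941 to 1.05) was fitted to all 12 libraries, with 8 residual degrees of freedom and Benjamini-Hochberg adjustment over all tested unigenes, called at 0.05. A biological coefficient of variation of 0.251 was estimated. Shares and log2 ratios were compared with an exact permutation test of the F statistic over 15400 partitions (scipy 1.17.1). DESeq2 1.42.0 and limma 3.58.1 were alternatives, and the edgeR step was tested on simulated data. Counts were also summed over the NR entry, the Trinity gene and the Swiss-Prot entry, the last added after the data were seen. Libraries of the same area differed by more than read sampling (chi-square per degree of freedom 4.47 to 8.85 over 12 pairs). No pair was merged, and this does not show that they are separate plants. Intervals and floors cover counting error only.

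The 6 enzymes and the gene lists were chosen with earlier results of these data known. Unigenes are named by rule: the 6 enzymes, others of their NR entry with at least 5% of its sum, the most abundant of each upstream enzyme and coumarin role, and the 3 most correlated annotated unigenes per enzyme. Exceptions are stated beside them. No genome, coordinates or sequences of the unigenes were used here. The labels give no batch.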

Additional observations from a re-analysis of the deposited data

How the results depend on the processing

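Of the comparisons of counts, shares and ratios, 217 stayed the same under the alternatives and 29 moved. A count stayed the same when it was within 1.5 times its main value. A share or ratio stayed the same when the difference between its highest and lowest area kept its direction and its side of the threshold, whatever its size. All 324 values with 1 library removed stayed so. Among the single fold changes, 394 kept their direction and their side of the threshold, 11 lost a call, 6 gained 1 and 12 changed sign, and removals of 1 library gave 414, 14, 0 and 4. A call rule of at least 2-fold left 2 of the 6 enzymes between Gansu and Hubei and 2 between Hubei and Shanxi, and sums over Swiss-Prot entries left 3 between Gansu and Hubei. For the coumarin list, called in any area for 39 unigenes, summing by NR entry left 24 and by Swiss-Prot entry 11, because fewer entries than unigenes are tested. In the pairs, with unigenes higher and then lower in the first-named area, NR sums left 13 lower (Chongqing against Gansu), 4 and 14 (Chongqing against Hubei), 7 higher (Chongqing against Shanxi), 9 higher (Gansu against Hubei), 10 higher (Gansu against Shanxi) and 11 higher (Hubei against Shanxi). Swiss-Prot sums left 1 and 6, 1 and 9, 3 and 8, 3 and 3, 7 and 4, and 6 and 2 in the same order of pairs. A minimum of 50 counts left 5, 4 and 11 higher in Chongqing against Gansu, Chongqing against Shanxi and Hubei against Shanxi, and fitting only the areas compared left 5 and 5 higher in the first 2 of these.

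Changes of sign were limited to comparisons near 0 and to sums. For log2 fold change, umbelliferone 6-dimethylallyl transferase, Chongqing vs Hubei, they were -0.47 (NR), -0.0474 (Trinity gene) and -1.08 (Swiss-Prot), and from -0.0484 without Chongqing replicate 2 to 0.13 without Hubei replicate 1 over the removals. For log2 fold change, angelicin synthase, Chongqing vs Hubei, the values ran from -0.70 without Chongqing replicate 1 to 0.0025 without Chongqing replicate 3. For log2 fold change, second ortho-hydroxylase, Gansu vs Hubei, they were 0.30 (NR) and 0.35 (Swiss-Prot). For log2 fold change, second ortho-hydroxylase, Gansu vs Shanxi, they were 0.53 and 0.45. For log2 fold change, second ortho-hydroxylase, Hubei vs Shanxi, they were 0.22 (NR), 0.0514 (Trinity gene) and 0.10 (Swiss-Prot), and from -0.068 to 0.0057 over the removals. For log2 fold change, bergaptol O-methyltransferase, Gansu vs Shanxi, it was -0.35 (Swiss-Prot), and for log2 fold change, psoralen synthase, Hubei vs Shanxi, 0.072 (Swiss-Prot). The causes were not tested beyond the construction of the sums.

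Same-numbered libraries did not deviate together (correlations of -0.135 to 0.116 over 18 pairs, with 3 of 12 libraries closest to their own number), so the numbers were not used as pairs. With the replicate number as a block, 41308 unigenes differed between areas in place of 42773, and 5 of the 6 enzymes were called between Chongqing and Gansu, the angelicin synthase unigene having an adjusted p of 0.1 there with edgeR. No other count of called enzymes changed under the block.

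With 1 library removed, the 6 enzymes kept 6 calls over all areas, 5 to 6 (Chongqing against Gansu), 4 (Chongqing against Hubei), 6 (Chongqing against Shanxi), 5 (Gansu against Hubei), 6 (Gansu against Shanxi) and 3 to 4 (Hubei against Shanxi). Depth limits the angelicin synthase unigene alone among the 6, with 2 counts in all Shanxi libraries together. Trinity genes of the ortho-hydroxylases and the prenyltransferase hold transcripts that match other proteins. Their sums gave smaller folds in the called pairs with Chongqing, though not in every pair, and no call was lost. Chongqing against Gansu, Hubei and Shanxi then gave log2 fold changes of -3.17, -2.47 and -2.05 for the first ortho-hydroxylase and -2.12, -2.72 and -2.67 for the second. The prenyltransferase gave -1.66 (Chongqing against Gansu), -0.83 (Chongqing against Shanxi), 1.61 (Gansu against Hubei) and -0.78 (Hubei against Shanxi).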
